A study of Arabidopsis thaliana with 32 samples.

Results

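The genes described here are 10 genes of the main route of auxin synthesis in Arabidopsis (*Arabidopsis thaliana*): *TAA1*, its relative *TAR2*, and the *YUCCA* genes *YUC1*, *YUC2*, *YUC3*, *YUC4*, *YUC5*, *YUC6*, *YUC8*, and *YUC9*. They were chosen by name and locus from the 27655 genes of the table, and 8 of them were among the 19937 genes that reached the level needed for a test, which was 0.5 FPKM (fragments per kilobase of exon and per unit of library depth) in at least 4 libraries. *YUC1* and *YUC4* did not reach it. RNA-seq was performed on whole seedlings of the Col-0 wild type and of mutants labelled *pif4-2*, *hmr-22*, and *med14-2*, all in the Col-0 background. All seedlings were kept for 96 h at 20°C or 27°C under red light that was never off, at a fluence rate of 50 µmol m-2 s-1, with 4 biological replicates for each of the 8 groups and 32 libraries in all. The *pif4-2* and Mediator mutants are T-DNA insertion lines, and *hmr-22* is a weak allele that carries a mutated residue. One allele stands for each mutant.

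Indole-3-acetic acid, the main auxin, is made from tryptophan in a short pathway. TAA1 and the TAR proteins are aminotransferases that turn tryptophan into indole-3-pyruvate, and the YUCCA proteins are flavin-containing monooxygenases that turn indole-3-pyruvate into indole-3-acetic acid, the step usually taken to limit the rate. In warm seedlings, the bHLH transcription factor PIF4 is known to bind the promoter of *YUC8* and raise its transcript, and the auxin made in the cotyledons drives elongation of the hypocotyl. HMR is a protein of plastids and the nucleus that acts with PIF4, and MED14 is a subunit of the Mediator complex, which links transcription factors to RNA polymerase II.

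The targeted genes checked the labels only in part. At 27°C, *PIF4* was at 4.34 to 6.96 FPKM in *pif4-2* and at 21.95 to 26.6 FPKM in Col-0, whereas at 20°C the same groups overlapped (4.02 to 6.46 and 5.49 to 9.36 FPKM). *HMR* was nearly absent in libraries labelled *hmr-22*, with 0.0766 to 1.31 FPKM against 27.0 to 55.3 FPKM in Col-0. Why so little transcript was present was not tested. *MED14* was not lower in the libraries labelled *med14-2*, with 9.73 to 10.4 FPKM at 20°C against 4.97 to 6.31 FPKM in Col-0, and reads on either side of an insertion were not separated. Both mutants are therefore named by their labels. Library depth was 11911240 to 16883321 mapped fragments, recovered from the FPKM values, and 35.2 to 74.7% of them lay in nuclear genes in the libraries labelled *hmr-22*, 55.9% in *med14-2* replicate 1 at 27°C, and 68.0 to 96.1% in the remaining libraries. FPKM values were therefore scaled by trimmed means of M values (TMM) for the tests. Leaving the values unscaled moved the median log2 change with warmth over all genes up by 0.47 in Col-0, and that of the libraries labelled *hmr-22* against Col-0 moved down by 1.39 at 20°C and 1.32 at 27°C.

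A transcript was called changed with warmth, or between a mutant and Col-0, at an adjusted p under 0.001 (limma, Benjamini-Hochberg over all genes tested), a change of 2-fold or more, and a mean over 1 FPKM in the higher group. A difference between 2 changes with warmth was called at an adjusted p under 0.05. Log2 changes below are on the log2(TMM-scaled FPKM + 0.25) scale with their standard error (SE), and levels are deposited FPKM unless called scaled. The SE of a gene rests on a single spread shared by all 8 groups. Over the genes tested, the median SD of log2 values was 0.46 and 0.32 in libraries labelled *hmr-22* at 20°C and 27°C. In the other groups it was 0.15 to 0.21, so the shared SE can be wider than the spread within those groups. Because whole seedlings were used, fewer cells of a type and less RNA per cell cannot be told apart. Comparisons of the mutants with Col-0 share the same Col-0 libraries.

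*YUC8* was the member whose response to warmth was called different from that of Col-0 in every mutant. In Col-0 it was higher at 27°C than at 20°C in every library, and in *pif4-2* and the libraries labelled *med14-2* it was lower at 27°C on average. At 27°C its level in those mutants was below that of every Col-0 library. For the other 7 members tested, no difference in response between a mutant and Col-0 passed the test of that difference. Such a difference was called for 2.49% of all genes in *pif4-2*, 6.41% in the libraries labelled *med14-2*, and 45.5% in those labelled *hmr-22*. In the last, 1 of 8 members was a smaller share than that of all genes. *YUC8* (AT4G28720) lies on the plus strand at chr4:14192569-14194302 (TAIR10) and encodes a YUCCA monooxygenase.

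The region before the annotated start of *YUC8* is shown because it holds the letters that PIF proteins are known to bind. The motifs searched were the G-box CACGTG, which reads the same on both strands, and the PIF-binding E-box, CACATG or its reverse CATGTG. Both lines give the plus strand of TAIR10 as held by RefSeq, 5′ to 3′, with G-boxes in capitals, for chr4:14192069-14192148 in *YUC8* and chr1:1103347-1103426 in *YUC9*, the other member with a close pair.
YUC8: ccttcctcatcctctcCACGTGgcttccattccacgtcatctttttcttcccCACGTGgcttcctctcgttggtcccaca
YUC9: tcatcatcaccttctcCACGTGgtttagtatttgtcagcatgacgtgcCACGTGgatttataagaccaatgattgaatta
In *YUC8*, the G-boxes begin 484 and 448 bases before the start, 36 bases apart. In *YUC9* they begin 1130 and 1098 bases before it, 32 bases apart. A pair of G-boxes within 40 bases, anywhere in the 3000 bases upstream, was found in 2.50% of 27441 nuclear genes. Within 1000 bases, *YUC8* was the only one of the 10 members with a G-box, which 14.8% of all genes had, and it held 2 of them, as did 2.67% of all genes.

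Both genes also carry an E-box close to the start, shown in capitals in the last 80 bases before it, at chr4:14192489-14192568 and chr1:1104413-1104492, plus strand.
YUC8: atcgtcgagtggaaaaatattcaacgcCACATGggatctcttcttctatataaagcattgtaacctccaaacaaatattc
YUC9: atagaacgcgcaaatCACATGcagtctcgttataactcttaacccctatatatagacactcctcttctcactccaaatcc
These E-boxes begin 53 bases before the start of *YUC8* and 65 before that of *YUC9*. *YUC2* and *YUC6* also had an E-box within 1000 bases, as did 37.7% of all genes. A G-box farther out was found in *YUC5*, 1399 bases before the start, and in *TAA1*, 2847 bases before it, and 31.7% of all genes had a G-box within 3000 bases. An auxin response element, TGTCTC or TGTCGG on either strand, was found within 3000 bases in 9 members, all but *YUC8*, and in 87.6% of all genes. No match overlapped a match of another motif in these genes, and a match describes the letters only.

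**Figure D1:**
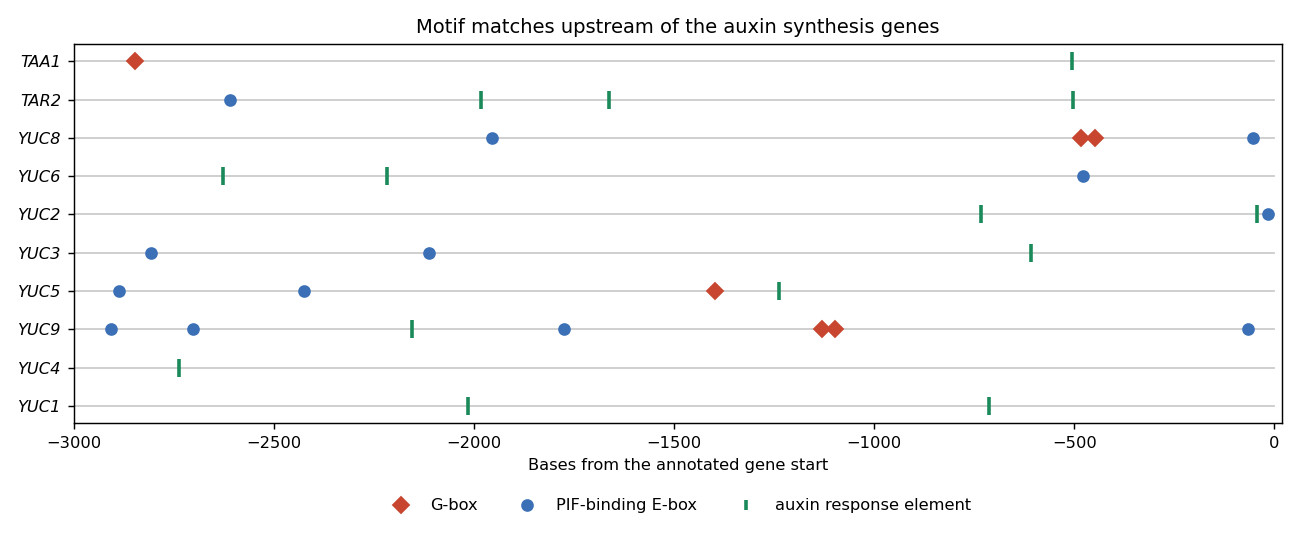
Motif matches in the 3000 bases before each of the 10 genes, with distance from the annotated start on the horizontal axis; diamonds are G-boxes, circles E-boxes, and bars auxin response elements. The G-box pairs of *YUC8* (484 and 448 bases before the start) and *YUC9* (1130 and 1098) stand out as adjacent diamonds.

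In Col-0, *YUC8* was at 2.18, 1.91, 1.21, and 2.31 FPKM at 20°C and at 3.94, 5.12, 5.26, and 4.82 FPKM at 27°C. Every library grown at 27°C was above every library grown at 20°C, and the mean was 2.52-fold higher at 27°C, going from 1.90 ± 0.49 to 4.78 ± 0.59 FPKM (SD, n = 4). On the scaled values the groups were also apart, at 1.11 to 1.80 and 2.35 to 3.22, and the log2 change was 0.76 (SE 0.23), with an adjusted p of 0.0152 (limma), which missed the threshold. Without scaling it was 1.25 and passed (adjusted p = 0.000435), whereas without Col-0 replicate 3 at 20°C it was 0.62 (adjusted p = 0.0717). No member was called with warmth in Col-0, where 5.24% of all genes tested were called. The median log2 change of the 8 members was -0.08, beside 0.02 for all genes tested.

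In *pif4-2*, *YUC8* was at 1.69, 1.67, 1.49, and 2.07 FPKM at 20°C and at 1.04, 0.610, 1.03, and 1.24 FPKM at 27°C. The order of the temperatures was thus the opposite of that in Col-0, again with no overlap. The log2 change was -1.07 (SE 0.23, adjusted p = 0.000694, limma), the only call among the members in this comparison, where 5.7% of all genes were called. That call was near the threshold: it was lost in 13 of 32 fits that each left out a single library, among them each of the 8 *pif4-2* libraries, and without scaling (log2 change -0.71, adjusted p = 0.0350). At 20°C *YUC8* in *pif4-2* and Col-0 overlapped, with a log2 difference of 0.08 (SE 0.23, adjusted p = 0.88), and no member was called, beside 0.782% of all genes. At 27°C it was lower in every *pif4-2* library than in any Col-0 library, by a log2 difference of -1.75 (SE 0.23, adjusted p = 1.22e-06), the single member among the 4.48% of genes called.

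In the libraries labelled *med14-2*, *YUC8* was at 1.503, 1.12, 1.29, and 1.37 FPKM at 20°C and at 0.289, 0.478, 1.24, and 1.41 FPKM at 27°C. The 4 libraries at 27°C were uneven, with replicates 1 and 2 low, and the groups overlapped as deposited but not when scaled (0.908 to 1.21 at 20°C and 0.264 to 0.772 at 27°C). The log2 change was -0.87 (SE 0.23, adjusted p = 0.00634), which missed the threshold, and no member was called, beside 4.45% of all genes. With a weight for each library it was -1.17 and passed (adjusted p = 8.46e-07). At 20°C *YUC8* overlapped with Col-0 (log2 difference -0.46, SE 0.23, adjusted p = 0.21), and no member was called among the 1.96% of genes that were. At 27°C it was the 1 member called, beside 3.23% of all genes, with a log2 difference of -2.08 (SE 0.23, adjusted p = 7.55e-08) and every library under the lowest of Col-0. *PIF4* was also called lower than in Col-0 in these libraries at 27°C (-1.05, SE 0.20, adjusted p = 0.000322, limma). Its response to warmth differed from that in Col-0 as well (-1.08, SE 0.28, adjusted p = 0.0145). Whether this bears on *YUC8* was not tested.

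For libraries labelled *hmr-22*, the *YUC8* level was 0.811, 1.69, 0.722, and 0.691 FPKM at 20°C and 0.953, 0.795, 1.53, and 0.933 FPKM at 27°C. The temperatures overlapped. How these levels compare with Col-0 depended on the scaling, since the scaled values were 1.96 to 4.05 at 20°C and 1.55 to 2.36 at 27°C. The log2 change with warmth was -0.65 (SE 0.23, adjusted p = 0.0158) but 0.12 without scaling. At 20°C the difference from Col-0 was 0.85 (SE 0.23, adjusted p = 0.00145) with scaling and -0.84 without it. At 27°C it was -0.56 (SE 0.23, adjusted p = 0.0291) with scaling and -1.97 without it, so that at 20°C the direction itself was set by the scaling. No member was called with warmth in these libraries, where 22.1% of all genes were called.

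The responses of *YUC8* to warmth were then compared directly. The change in *pif4-2* was lower than that in Col-0 by a log2 difference of -1.83 (SE 0.33, adjusted p = 0.00107, limma). The differences were -1.41 for the libraries labelled *hmr-22* (SE 0.33, adjusted p = 0.000791) and -1.62 for those labelled *med14-2* (SE 0.33, adjusted p = 0.00123). *YUC8* was the only member called in each, beside 2.49%, 45.5%, and 6.41% of all genes, in that order. It was called in all 32 fits that left out a library, and in every other alternative run, those without scaling included, where the differences were -1.96, -1.13, and -1.91. Over these members the median difference was -0.22, 0.01, and 0.07, beside -0.01, 0.20, and 0.02 over all genes.

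**Figure D2:**
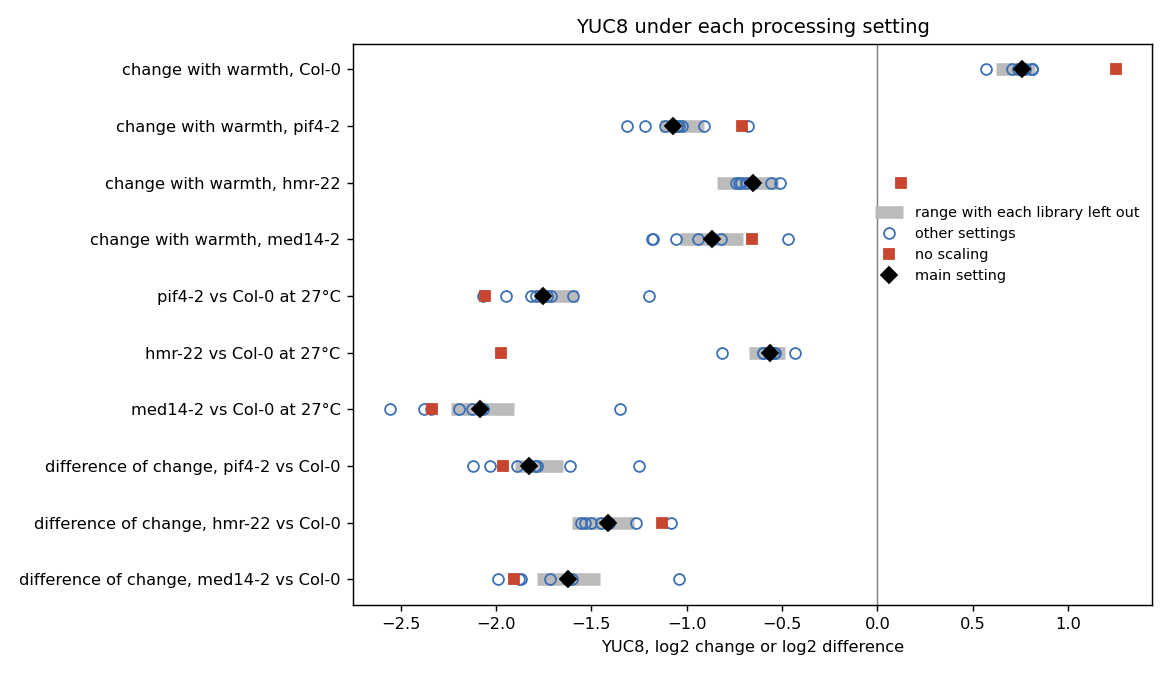
*YUC8* log2 changes with warmth, log2 differences from Col-0 at 27°C, and log2 differences of the changes, with 1 comparison per row and log2 values on the horizontal axis; black diamonds are the main setting, red squares no scaling, blue circles the other settings, and grey bars the range with each library left out. The 3 differences of the change lie below 0 under every setting, while the change in the libraries labelled *hmr-22* moves from -0.65 to 0.12 without scaling.

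The share of *YUC8* in the summed FPKM of the 8 *YUC* genes does not depend on the scaling, since each share is taken within a library. In Col-0 it was 18.9 to 26.9% at 20°C and 36.5 to 42.5% at 27°C, with no overlap. In *pif4-2* it was 22.03 to 25.8% at 20°C, within the range of Col-0, and 8.90 to 18.5% at 27°C. In the libraries labelled *med14-2* it was 18.5 to 22.4% and 5.98 to 15.7%. *YUC8* was thus the leading *YUC* transcript of Col-0 at 27°C (39.6 ± 2.5%, SD, n = 4), while in *pif4-2* and the libraries labelled *med14-2* at 27°C *YUC6* had the highest mean, with 23.9 ± 4.1 and 31.8 ± 10.3%, and overlapped with *YUC2* in both. In the libraries labelled *hmr-22* the share of *YUC8* had the highest means and spread widely, with 29.2 to 82.6% at 20°C and 42.1 to 66.8% at 27°C. A share shows unequal change among the genes and not which of them moved.

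**Figure D3:**
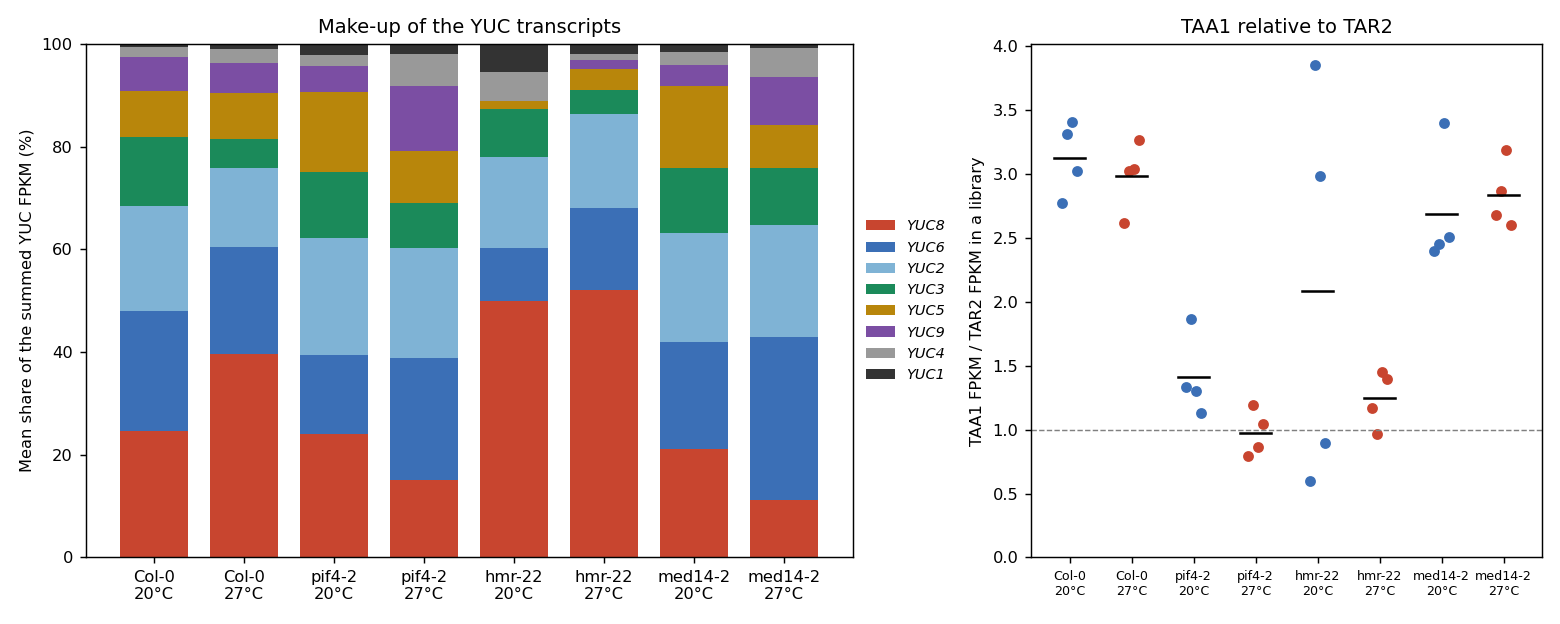
Left, the mean share of each *YUC* gene in the summed *YUC* FPKM (per cent, 4 libraries per group). Right, *TAA1* FPKM divided by *TAR2* FPKM in each library (points) with group means (bars) and a dashed line at 1. *YUC8* (red) takes 39.6% in Col-0 at 27°C and 15.0% in *pif4-2*, and the ratio of *TAA1* to *TAR2* is 2.61 to 3.41 in Col-0 and 0.797 to 1.87 in *pif4-2*.

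The summed level of the *YUC* genes at 27°C was lower in every mutant library than in any Col-0 library, both as deposited and scaled. The sum includes *YUC8*, whose scaled mean at 27°C was 2.82 in Col-0 and 0.67 in *pif4-2*. In the libraries labelled *med14-2* and *hmr-22* that mean was 0.51 and 1.84. A sum without *YUC8* was not compared, so a lower level of the other *YUC* genes together is not shown. In Col-0 the sum was 7.64 ± 1.01 FPKM at 20°C and 12.1 ± 0.97 FPKM at 27°C (SD, n = 4), or 6.40 ± 0.41 and 7.12 ± 0.69 when scaled, where the groups overlapped. In *pif4-2* the scaled sum was 6.93 ± 0.63 at 20°C and 4.53 ± 0.38 at 27°C, and in the libraries labelled *med14-2* it was 5.06 ± 0.37 and 4.42 ± 0.70 (6.24 ± 0.51 and 7.03 ± 1.89 FPKM as deposited). At 27°C the scaled sum was 4.04 to 4.92 in *pif4-2*, 3.44 to 5.02 and 3.01 to 4.24 in the libraries labelled *med14-2* and *hmr-22*, and 6.45 to 8.05 in Col-0. The libraries labelled *med14-2* were already below Col-0 at 20°C when scaled (4.77 to 5.60 against 5.87 to 6.80), which was not so in *pif4-2* (6.36 to 7.72).

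*TAA1* and *TAR2*, the aminotransferases of the first step, were the most abundant members per length in every group except those labelled *hmr-22* at 20°C. *TAA1* (AT1G70560) lies on the plus strand at chr1:26604855-26607652, and *TAR2* (AT4G24670) on the minus strand at chr4:12727531-12731331. In Col-0 at 20°C the order was *TAA1* (12.03 ± 0.71 FPKM, SD, n = 4), *TAR2* (3.88 ± 0.57), *YUC8*, *YUC6*, *YUC2*, *YUC3*, *YUC5*, *YUC9*, *YUC4*, and *YUC1*. Neighbours overlapped between *YUC8* and *YUC6*, *YUC6* and *YUC2*, *YUC5* and *YUC9*, and *YUC4* and *YUC1*, and were apart elsewhere. At 27°C *YUC8* (4.78 FPKM) reached the range of *TAR2* (5.10 ± 0.45 FPKM) and stood clear of *YUC6* (2.51 ± 0.14 FPKM).

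*TAA1* had lower values in *pif4-2* than in Col-0 at 27°C, short of a call. It was at 14.4, 15.7, 15.9, and 14.6 FPKM in Col-0 at 27°C and at 6.38, 8.11, 7.03, and 8.37 FPKM in *pif4-2*. No library overlapped, and the log2 difference was -0.77 (SE 0.21, adjusted p = 0.00500, limma), which missed the threshold. At 20°C it was at 12.8, 11.1, 11.9, and 12.3 FPKM in Col-0 and at 6.69, 11.8, 8.50, and 8.41 FPKM in *pif4-2*, where 1 library reached the range of Col-0 (log2 difference -0.27, SE 0.21, adjusted p = 0.45). With warmth, the scaled level of *TAA1* in *pif4-2* was lower in every library (log2 change -0.68, SE 0.21, adjusted p = 0.0128), beside -0.17 (SE 0.21, adjusted p = 0.61) in Col-0. The difference between these changes was -0.50 (SE 0.29, adjusted p = 0.52), so that they were not shown to differ. Without scaling, the change was -0.22 in *pif4-2* (adjusted p = 0.51, limma) and 0.33 in Col-0 (adjusted p = 0.26). As deposited, the *pif4-2* libraries of the 2 temperatures overlapped.

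*TAR2* had the opposite order, with more transcript in *pif4-2* than in Col-0. In Col-0 it was at 4.60, 3.36, 3.49, and 4.07 FPKM at 20°C and at 5.50, 5.21, 5.23, and 4.46 FPKM at 27°C. In *pif4-2* it was at 5.02, 6.31, 6.51, and 7.45 FPKM at 20°C and at 8.02, 6.81, 8.16, and 8.03 FPKM at 27°C. Every *pif4-2* library was above every Col-0 library grown at the same temperature. The log2 difference was 0.84 at 20°C (SE 0.19, adjusted p = 0.00263) and 0.78 at 27°C (SE 0.19, adjusted p = 0.00199), neither past the threshold, and *TAR2* had no change with warmth that passed in either genotype. Set against each other within a library, *TAA1* was 2.61 to 3.41 times *TAR2* in the 8 Col-0 libraries and 0.797 to 1.87 times *TAR2* in the 8 *pif4-2* libraries, a ratio chosen after the values were seen. In those labelled *med14-2* it was 2.40 to 3.40, which overlapped with Col-0. In those labelled *hmr-22* it was 0.963 to 1.45 at 27°C, below every Col-0 library and within the range of *pif4-2*. At 20°C it spread from 0.597 to 3.86 there, with 6 to 31 *TAA1* fragments a library. A low ratio was thus not particular to *pif4-2*.

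Neither gene passed the test between the libraries labelled *med14-2* and Col-0. *TAA1* was at 9.03, 10.06, 10.8, and 10.6 FPKM at 20°C and at 7.63, 12.3, 13.6, and 14.8 FPKM at 27°C, and its scaled values lay below those of Col-0 at each temperature without overlap (log2 differences -0.30 and -0.24, SE 0.21, adjusted p = 0.40 and 0.55). *TAR2* was at 3.77, 4.102, 3.18, and 4.21 FPKM at 20°C and at 2.85, 4.27, 4.27, and 5.71 FPKM at 27°C, overlapping with Col-0 at both.

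Both aminotransferase transcripts were low in the libraries labelled *hmr-22*. *TAA1* was at 0.248, 1.47, 0.476, and 0.774 FPKM at 20°C and at 1.47, 0.890, 1.86, and 1.33 FPKM at 27°C, below every other library of the series. Its log2 difference from Col-0 was -2.19 at 20°C (SE 0.21, adjusted p = 4.46e-11) and -1.80 at 27°C (SE 0.21, adjusted p = 3.36e-09). *TAR2* was at 0.415, 0.380, 0.159, and 0.864 FPKM at 20°C and at 1.25, 0.924, 1.28, and 0.955 FPKM at 27°C. It was called lower at 20°C (log2 difference -1.19, SE 0.19, adjusted p = 1.00e-06) but not at 27°C (-0.57, SE 0.19, adjusted p = 0.00697). At 20°C these were the 2 members called, where 49.6% of all genes were, and at 27°C *TAA1* and *YUC5* were, where 47.7% were, so that 2 of 8 was no larger a share than that of all genes. The median log2 difference of the members was -1.16 at 20°C and -0.92 at 27°C, beside -0.29 and -0.13 for all genes.

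**Figure D4:**
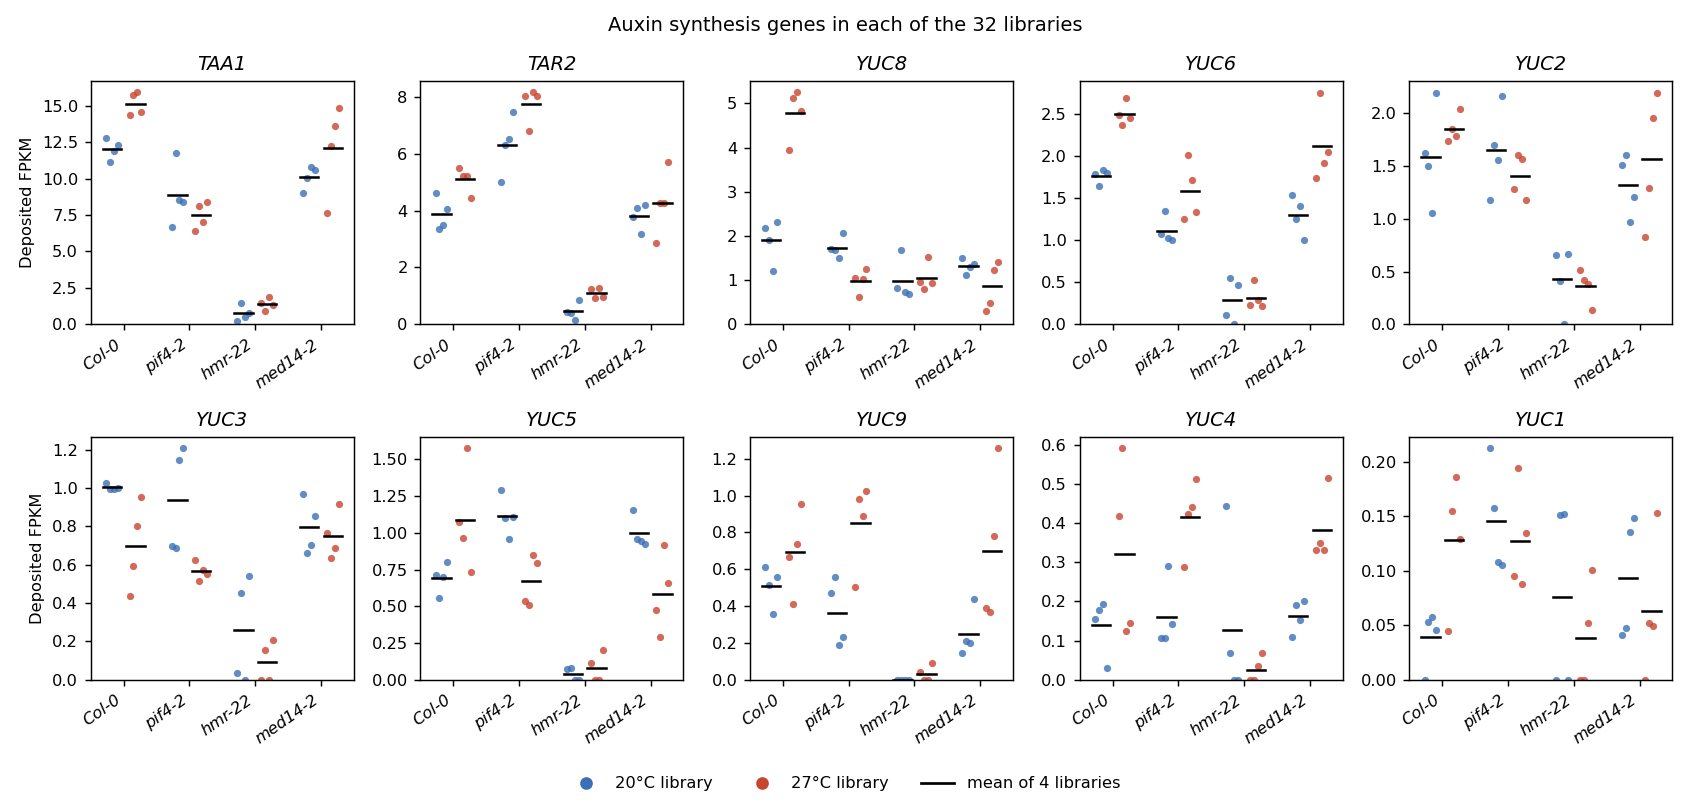
Deposited FPKM of each of the 10 members in every library (points; blue 20°C, red 27°C) with the mean of 4 libraries (bars), by genotype label. *YUC8* in Col-0 at 27°C (3.94 to 5.26 FPKM) stands above all other groups, *TAR2* is highest in *pif4-2*, and most members are near 0 in the libraries labelled *hmr-22*.

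Of the other *YUC* genes, *YUC5* (AT5G43890, minus strand, chr5:17648576-17650375) was lower at 27°C in every library of 2 mutants, though no change with warmth passed the test. It was at 0.711, 0.555, 0.700, and 0.804 FPKM in Col-0 at 20°C and at 1.08, 0.961, 1.58, and 0.733 FPKM at 27°C, with overlap. In *pif4-2* it was at 1.29, 1.103, 0.958, and 1.11 FPKM at 20°C and at 0.538, 0.510, 0.849, and 0.796 FPKM at 27°C, with none. The libraries labelled *med14-2* had 1.15, 0.961, 0.947, and 0.921 FPKM at 20°C and 0.477, 0.293, 0.914, and 0.659 FPKM at 27°C, also with none. The log2 changes were 0.08 in Col-0 (SE 0.27, adjusted p = 0.88), -0.90 in *pif4-2* (SE 0.27, adjusted p = 0.0102), and -0.79 in those labelled *med14-2* (SE 0.27, adjusted p = 0.0314), none past the threshold. The differences from Col-0 were -0.98 (SE 0.38, adjusted p = 0.21) and -0.87 (SE 0.38, adjusted p = 0.22), and they passed only when the libraries labelled *hmr-22* were left out, when only the groups compared were fitted, with a weight for each library, and, for one mutant each, with a pseudocount of 1 FPKM (*pif4-2*) or no scaling (*med14-2*).

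In the libraries labelled *hmr-22*, *YUC5* was at 0.0710, 0.0814, 0, and 0 FPKM at 20°C and at 0.115, 0, 0, and 0.204 FPKM at 27°C, at most 5 fragments a library. It was called lower at 27°C (log2 difference -1.28, SE 0.27, adjusted p = 7.83e-05). That call was lost without Col-0 replicate 3 at 27°C, though the adjusted p did not exceed 0.000916 in any fit with a library left out. At 20°C the log2 difference was also -1.28 (SE 0.27, adjusted p = 7.43e-05, limma). It was not called there because the Col-0 mean of 0.692 FPKM was under the level the rule asks for. *YUC9* was at 0 in all 4 of these libraries at 20°C, which with a limit of 3 fragments over the group puts it at least 15.5-fold lower than Col-0 as deposited and at least 4.07-fold lower when scaled. *YUC9* itself had, in Col-0, 0.356 to 0.613 FPKM at 20°C and 0.411 to 0.952 FPKM at 27°C, too low for a call under the rule on levels.

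*YUC9* with its G-box pair did not follow *YUC8*. Its log2 change with warmth was -0.05 in Col-0 (SE 0.24), 0.50 in *pif4-2* (SE 0.24), and 0.57 in the libraries labelled *med14-2* (SE 0.24), with adjusted p values of 0.91, 0.12, and 0.085. *YUC6* and *YUC2*, the next most abundant *YUC* genes after *YUC8* in Col-0, were not called in any comparison. *YUC6* was at 1.65 to 1.84 FPKM in Col-0 and 0.998 to 1.35 FPKM in *pif4-2* at 20°C, with no overlap, but the log2 difference of -0.40 (SE 0.35, adjusted p = 0.52) did not pass. The SE is shared by all groups, and the SD of scaled *YUC6* at 20°C was 0.13 in Col-0 and 0.17 in *pif4-2*. In the libraries labelled *hmr-22* at 20°C that SD was 0.68. *YUC3* was lower at 27°C in every Col-0 library (0.436 to 0.956 against 0.994 to 1.03 FPKM, log2 change -0.75, SE 0.39, adjusted p = 0.17) and in every *pif4-2* library (0.517 to 0.623 against 0.689 to 1.21 FPKM, -0.81, SE 0.39, adjusted p = 0.12), which did not pass either.

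*YUC1* and *YUC4* stayed below the level of the test, with 0 to 4 and 0 to 17 fragments a library. *YUC1* did not exceed 0.212 FPKM and *YUC4* did not exceed 0.591 FPKM. Of 20 two-sided exact permutation tests on these genes, in which 4 against 4 libraries cannot give a p under 0.0286, 0 passed after Benjamini-Hochberg adjustment (smallest adjusted p = 0.190). For any to pass, many of the 20 would have had to reach that smallest p together. The outcome therefore does not show an absence of change. For *YUC4*, every library labelled *med14-2* was higher at 27°C (0.331 to 0.514 FPKM) than at 20°C (0.110 to 0.200 FPKM).

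**Figure D5:**
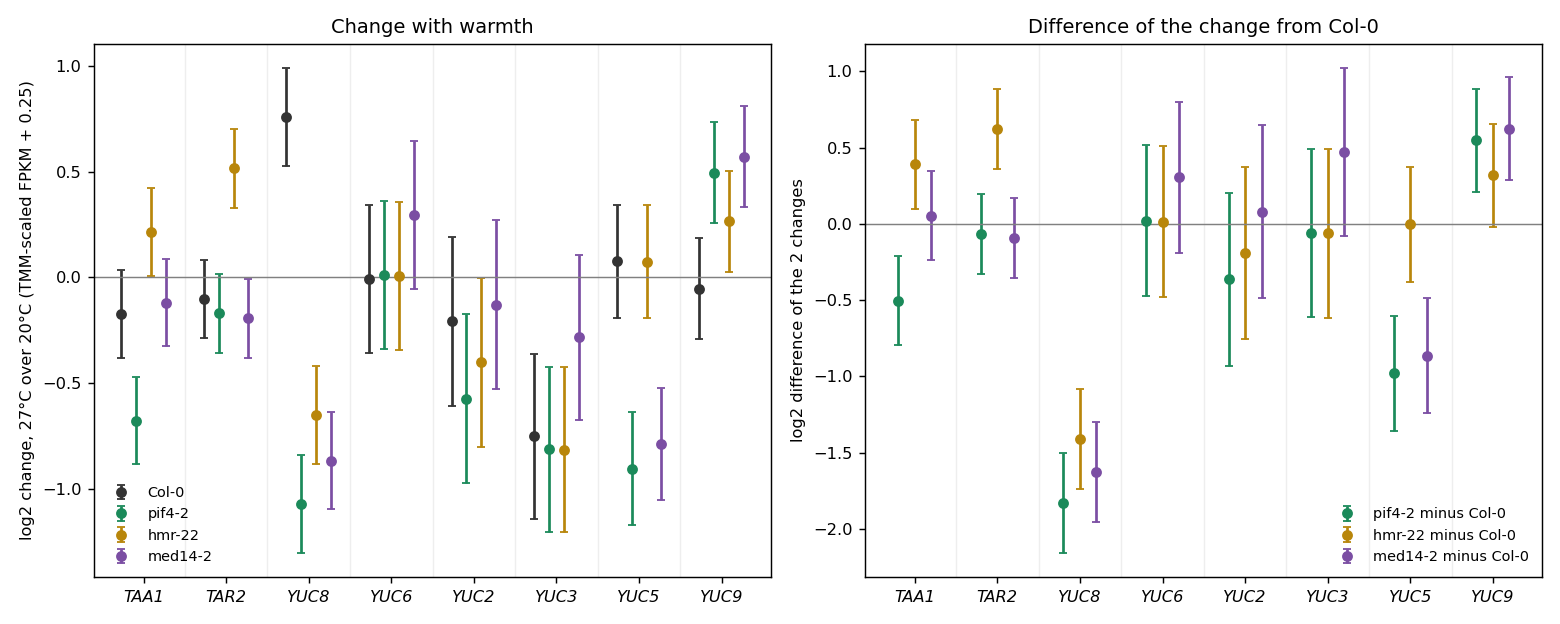
Left, log2 change with warmth (27°C over 20°C) of the 8 members tested, by genotype label. Right, the difference of that change from the one in Col-0. Points are limma estimates on log2(TMM-scaled FPKM + 0.25) and bars their standard errors. *YUC8* is the member whose change is above 0 in Col-0 (0.76) and below 0 in each mutant (-1.07, -0.65, and -0.87, the second being 0.12 without scaling).

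The other genes around this pathway were read from 4 lists. In Col-0 none of the tested genes in lists for the remaining members of the indole-3-pyruvate route (3 of 7 tested), tryptophan synthesis (12 of 12), the indole-3-acetaldoxime route (9 of 10), and release of stored auxin (10 of 10) passed the test with warmth. Of all genes tested, 5.24% were called in that comparison. *YUC10*, *YUC11*, and *TAR1* were at 0 in every library. *VAS1*, an aminotransferase that returns indole-3-pyruvate to tryptophan, had in Col-0 16.6 to 18.6 FPKM at 20°C and 17.9 to 20.5 FPKM at 27°C, a higher level per length than that of any member, and is named after its values were seen.

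In *pif4-2*, *TAR4*, a further relative of *TAA1*, rose with warmth by a log2 change of 2.11 (SE 0.31, adjusted p = 4.78e-06, limma), from 0.0439 to 0.264 FPKM at 20°C to 1.38 to 2.66 FPKM at 27°C. It was also higher at 27°C in every Col-0 library (0.0378 to 0.265 against 0.397 to 1.67 FPKM, 0.99, SE 0.31, adjusted p = 0.0170), and the difference between these responses did not pass (1.12, SE 0.44, adjusted p = 0.23). *TAR3*, another relative, was higher in *pif4-2* than in Col-0 at 27°C (2.92 to 6.32 against 1.38 to 2.24 FPKM, log2 difference 1.38, SE 0.28, adjusted p = 0.000382). Of the tryptophan genes, *PAI1* was lower in *pif4-2* at 27°C (log2 difference -1.12, SE 0.20, adjusted p = 7.23e-05), though its value is uncertain because *PAI1* and *PAI2* are near-identical copies. Among the nitrilases of the acetaldoxime route, *NIT2* fell with warmth in *pif4-2* (-1.57, SE 0.31, adjusted p = 0.000295), a call lost without scaling (-1.12, adjusted p = 0.0236) and uncertain where reads are shared with its close copies *NIT1* and *NIT3*. In Col-0 its change was -1.06 (SE 0.31, adjusted p = 0.0120), and the difference between these responses did not pass (-0.50, SE 0.44, adjusted p = 0.75). *NIT4*, which in Arabidopsis is known for the detoxification of cyanide products, was higher in *pif4-2* than in Col-0 at 27°C (5.199 to 8.36 against 1.26 to 2.80 FPKM, 1.89, SE 0.28, adjusted p = 6.09e-06), and its response to warmth differed from that of Col-0 (1.44, SE 0.39, adjusted p = 0.0421).

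The amidohydrolase gene *IAR3*, whose product frees auxin from its conjugate with alanine, was lower in the libraries labelled *med14-2* than in Col-0 at both temperatures. It was at 2.82 to 3.68 FPKM at 20°C against 8.50 to 10.4 FPKM in Col-0 and at 2.68 to 6.49 FPKM at 27°C against 14.9 to 17.5 FPKM. The log2 differences were -1.48 (SE 0.21, adjusted p = 7.87e-06) and -1.62 (SE 0.21, adjusted p = 1.06e-06). *TSB2*, a tryptophan synthase subunit, rose with warmth in these libraries (1.07, SE 0.19, adjusted p = 0.000109). Its scaled level was higher at 27°C without overlap in Col-0 as well (0.40, SE 0.19, adjusted p = 0.14) and in *pif4-2* (0.43, SE 0.19, adjusted p = 0.097), and the difference from Col-0 did not pass (0.67, SE 0.27, adjusted p = 0.18). *MES17*, an esterase of methyl-auxin, differed from Col-0 in its response to warmth (-0.96, SE 0.30, adjusted p = 0.0477).

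Of the 12 tryptophan genes, 10 were lower in the libraries labelled *hmr-22* than in wild type at 20°C and 8 at 27°C, with medians of -1.60 and -1.72 on the log2 scale, beside -0.29 and -0.13 for all genes, of which 49.6% and 47.7% were called in either direction. The acetaldoxime genes divided, with 3 higher and 4 lower at each temperature. The P450 gene *CYP79B2*, which makes the aldoxime, was lower by -4.54 at 20°C (SE 0.19, adjusted p = 2.07e-19), and the nitrilase gene *NIT2* was higher by 3.41 (SE 0.31, adjusted p = 2.46e-11). Of the release genes, 3 were higher at 20°C and 4 at 27°C, led at 27°C by *IBR10* (3.16, SE 0.15, adjusted p = 6.73e-18), of the conversion of indole-3-butyric acid, and none was lower. The called release genes were thus a smaller share than that of all genes. The splits moved with the scaling. Without it, 12 and 11 tryptophan genes were lower. For the acetaldoxime genes, 0 and 2 were higher with 5 lower at each temperature, and for the release genes, 0 and 1 were higher with 7 and 5 lower. Of the 19937 genes tested, 12991 and 12615 were called without scaling, 12049 and 11272 of them lower. Dropping the scaling moved the median of all genes down by 1.39 and 1.32. Genes already lower could thus hardly turn, so the tryptophan counts are no check on their direction.

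Summed marker transcripts of root and shoot also differed with temperature and genotype, which does not by itself show a change in the make-up of the seedlings. In Col-0, 8 root markers summed to 72.7 to 85.5 (scaled) at 20°C and 19.1 to 35.2 at 27°C, 6 of them called lower, and it was 64.7 to 93.7 and 25.2 to 41.6 in *pif4-2*. In the libraries labelled *med14-2* it was 85.1 to 93.3 and 42.1 to 72.6, with 1 of 8 called lower. Over all genes tested, 5.24% were called with warmth in Col-0 and 4.45% in the libraries labelled *med14-2*. These shares also stand beside the counts of shoot markers below. No root marker was at 0 in every library of any group. In Col-0, 6 shoot markers summed to 19947 to 22920 (scaled) at 20°C and 13716 to 15762.5 at 27°C, and to 10944 to 12660 in the libraries labelled *med14-2* at 27°C, with none of the 6 called in Col-0 and 4 called lower with warmth in the libraries labelled *med14-2*. As deposited, the Col-0 sums overlapped, at 22273 to 27894 and 23793 to 26150. The markers did not move together in Col-0, where 2 of the 6 had a log2 change above 0. In *pif4-2* the scaled shoot sums were 24503 to 29530 at 20°C and 19467 to 22780 at 27°C, above every Col-0 library of the same temperature. As deposited this held only at 27°C (28888 to 31763), with overlap at 20°C (25717 to 27681). Libraries labelled *hmr-22* stood farthest apart at 20°C when scaled, with 46430 to 59907 for shoot and 142 to 310 for root markers. As deposited, these sums were 11823 to 20485 and 50.5 to 76.9. That was below every Col-0 library at 20°C (22273 to 27894 and 85.0 to 101), so the direction was set by the scaling. The part of these shifts in the levels of the auxin synthesis genes was not tested.

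The genes whose levels ran most like *YUC8* were listed as a description. Over the 24 libraries not labelled *hmr-22*, they were *HB5* (Pearson's r = 0.93), a homeodomain-leucine zipper gene, *EXPA16* (0.91), a cell wall expansin, *ACS4* (0.91), an enzyme of ethylene synthesis, AT3G61460 (0.89), the RING-type gene *BRH1*, and *BHLH87* (0.88). Over all 32 libraries AT3G61460 came first (0.85). For *TAA1*, the same list over 24 libraries was led by the arabinogalactan gene *FLA1* (0.95) and the cellulose synthase gene *CESA6* (0.92). Libraries of a group share temperature, genotype, and scaling, so these values carry no test.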

How the data were processed

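The libraries, of whole seedlings, were stranded. In CLC Genomics Workbench, the authors mapped reads to TAIR10 by strand, and they deposited these data as FPKM for each gene. The 10 members and the pathway lists were chosen with earlier results of these data known. Fragments were recovered from FPKM, exon length, and 1 total per library, with 99.2 to 99.3% of values within 0.05 of a whole number. Genes with at least 0.5 FPKM in at least 4 libraries were scaled by TMM (30% of M and 5% of A values trimmed) and fitted with limma (trend, robust) on log2(FPKM + 0.25), with 8 group means from all 32 libraries. The study's thresholds were used for calls, with limma in place of its count-based test because the deposited unit is FPKM.

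All 10 members were described, with values in every library for those called in any comparison. From each pathway list, genes called were named, up to 4 a list. The genes most like *YUC8* and *TAA1* were the 5 with the largest r. *FLA1* and *CESA6* lead the list of *TAA1*. The labels do not say that replicate numbers pair samples. All 4 same-number correlations were over 0.1 in 3 of 28 group pairs: *med14-2* at 20°C and 27°C, *med14-2* and Col-0 at 20°C, and *med14-2* and *pif4-2* at 27°C. A replicate block changed no call of a member in the comparisons of the first and second of these pairs, and the third was not compared. Upstream bases came from RefSeq's TAIR10.1, in which 27438 of 27445 nuclear genes have the deposited start and end, and motif shares cover the 27441 genes with 3000 bases upstream. The longest run shared by 2 member transcripts was 42 bases (*YUC5* and *YUC9*). The sequences of the proteins were not used here. Alternatives were median-ratio or no scaling, TMM without organelle genes, other filters and pseudocounts, a replicate block, other sets of libraries, library weights, voom on recovered fragments, each library left out, and, chosen after the data were seen, an adjusted p under 0.05 alone. The test was checked on simulated data. Python 3.11.15 (pandas 2.3.3, scipy 1.17.1) and R 4.3.3 (statmod 1.5.0, limma 3.58.1) were used.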

Additional observations from a re-analysis of the deposited data

Results flagged for a closer look

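In 79 sets of 4 libraries (10 genes in 8 groups, less 1 set at 0 throughout), 4 had a library far from the other 3 by Dixon's criterion, and chance alone marks about 1 in 20. For *YUC4*, replicate 1 labelled *hmr-22* at 20°C was at 0.443 FPKM with the next at 0.0677, and replicate 4 labelled *med14-2* at 27°C was at 0.514 FPKM with the next at 0.349. For *YUC8*, replicate 2 labelled *hmr-22* at 20°C was at 1.69 FPKM with the next at 0.811. For *TAR2*, *pif4-2* replicate 2 at 27°C was at 6.81 FPKM, with the next lowest at 8.02. The response of *YUC8* to warmth differed from that in Col-0 by a test of the difference itself, with log2 differences of -1.83 in *pif4-2*, -1.41 in the libraries labelled *hmr-22*, and -1.62 in those labelled *med14-2*. Over all genes, 2.49%, 45.5%, and 6.41% were called, in that order.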

How the results depend on the processing

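Of the *YUC8* results, the lower level at 27°C in *pif4-2* and in the libraries labelled *med14-2*, and the 3 differences in response, kept their direction and call under every alternative and in all 32 fits with a library left out. Without scaling, *YUC8* in the libraries labelled *hmr-22* changed sign, to 0.12 with warmth and -0.84 against Col-0 at 20°C. Counts of members called that moved by over 1.5 times were these. With no scaling, they were 1 with warmth in Col-0, 0 in *pif4-2*, and 1 in those labelled *hmr-22*, 5 and 6 for the latter against Col-0 at 20°C and 27°C, and 2 for the *med14-2* difference in response. Over the 19937 genes tested, the unscaled calls were 1998, 2320, 7194, 12991, 12615, and 1201, in that order. For the settings that follow, no share over all genes is set beside the counts. They describe the dependence on processing and are not read as results about the members. For warmth in *pif4-2*, the 1 call was lost (0) with median-ratio scaling, no filter, a pseudocount of 0.1 or 1 FPKM, and library weights, and leaving out a library gave 0 to 1. Leaving out a library gave 2 to 4 for *hmr-22* against Col-0 at 20°C (4 without its replicate 4 at 20°C), 1 to 3 at 27°C (1 without Col-0 replicate 3; 3, with *YUC6* added, also under median-ratio scaling, library weights, and voom), and 1 to 2 for its difference in response. A pseudocount of 1 FPKM gave 1 for *hmr-22* against Col-0 at each temperature and 2 for the *pif4-2* difference, and fitting only the groups compared gave 1, 1, and 3, with 2 for the *med14-2* difference. Without the libraries labelled *hmr-22* the *pif4-2* and *med14-2* differences had 3 and 2 calls, and with library weights 4 and 2, with 1 for warmth in *med14-2*. At an adjusted p under 0.05 alone, a rule chosen after seeing the data, the counts were 1, 3, 2, and 2 with warmth (Col-0, *pif4-2*, *hmr-22*, *med14-2*), 1 and 3 for *pif4-2* at 20°C and 27°C, and 6 and 6 for *hmr-22*. The replicate block gave 2 for the *hmr-22* difference (*YUC8* and *TAR2*) and changed no other count of members called. Causes of these shifts were not tested.

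Depth limits the low members: *YUC8* rested on 7 to 135 fragments a library, *YUC9* on 0 to 28, and *YUC1* on 0 to 4. The limit given for *YUC9* where it was at 0 covers counting error only, whereas standard errors come from the spread between libraries. Each mutant is 1 allele, and p-values measure the spread between these seedling samples.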
